A study of Mus musculus with 8 samples.

Results

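Ascending and descending aorta of newborn wild-type mice were compared on 4 of the 8 arrays of the series, the 2 ascending and the 2 descending wild-type arrays, chosen by their sample titles. Each array measured RNA pooled from 8 pups of strain C57BL/6 at postnatal day 0. The ascending piece ran from the aortic valve as far as the ductus arteriosus, and the descending piece lay between the level of the vena cava and the diaphragm, so the stretch between them is in neither. The other 4 arrays, again 2 for each segment, came from pups of the same age and strain without the fibulin-4 gene, which encodes a secreted protein on which elastic fibre assembly depends. Their values enter no wild-type difference, but they share the estimate of the spread with it, since all 8 arrays were fitted together. Arrays of 1 group are called biological replicates in the labels. Every value is a deposited log2 value, so a difference of 1 stands for a 2-fold ratio, and all differences are ascending minus descending.

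Smooth muscle cells of the ascending aorta arise from cardiac neural crest and from the second heart field, whereas those of the descending aorta arise from paraxial mesoderm. Such cells keep part of the transcription factor pattern of their origin, including the Hox code that marks position along the body axis. The dissected pieces also border on different neighbours: the ascending aorta on the heart, the epicardium, the thymus and the airways, the descending aorta on the fat and the nerves beside the vertebral column. In bulk samples such as these, fewer cells of a type and less RNA per cell cannot be told apart.

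Among 22180 genes, 2 passed limma's test at a Benjamini-Hochberg adjusted p under 0.05, which is 0.00902% of those tested, 1 in each direction (0.00451%). Tcf21, a transcription factor of the epicardium and of the fibroblasts that derive from it, was higher in ascending aorta. Cxcl13, a chemokine that attracts B cells, was higher in descending aorta. At an unadjusted p under 0.05 there were 1374 genes (6.19%), with 713 higher in ascending (3.21%) and 661 higher in descending aorta (2.98%). The larger share in ascending aorta rested on dim genes. Without the dimmest 25% of genes, limma gave 426 higher in ascending and 583 higher in descending aorta at that level. By sign alone, 51.7% of all genes were higher in ascending and 48.3% in descending wild-type aorta, and 48.3% and 51.7% in the knockout, against which the counts of list members are to be read.

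Tcf21 had log2 values of 8.05 and 7.19 on the ascending arrays and 4.72 and 4.51 on the descending arrays. Both ascending arrays lay more than 2 log2 units above both descending ones; the groups are separate in this direction for 15.9% of all genes in wild-type and 18.3% in knockout aorta. The difference was 3.01 (SE 0.32), which is 8.04-fold, with a limma adjusted p of 0.0422. In knockout aorta Tcf21 read 7.10 and 6.74 in ascending and 5.67 and 5.64 in descending tissue, again without overlap, with a smaller difference of 1.27. The 95% interval of the wild-type minus the knockout difference ran from 0.73 to 2.75, with an unadjusted p of 0.00339 and an adjusted p of 1.

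Cxcl13 read 6.36 and 6.73 in ascending and 9.11 and 9.55 in descending aorta. The descending arrays were the higher pair by more than 2 log2 units; separate groups in this direction were found for 14.1% of all genes, and for 20.8% in the knockout. The difference was -2.79 (SE 0.28), so that Cxcl13 was 6.90-fold higher in descending aorta, with a limma adjusted p of 0.0422. The knockout arrays read 7.97 and 7.80 in ascending and 8.89 and 8.47 in descending aorta, a difference of -0.80 in the same direction. The genotypes differed in this gene by -1.99, with an interval from -2.89 to -1.08 and an unadjusted p of 0.000684, which did not pass the adjustment over all genes (adjusted p of 1).

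Ptn, which encodes pleiotrophin, a secreted heparin-binding growth factor, came next with an adjusted p of 0.053. Its log2 values were 9.30 and 9.55 in ascending and 7.30 and 6.70 in descending aorta, a difference of 2.43 (SE 0.28) and a ratio of 5.39. The knockout gave nearly the same picture, with 9.62 and 9.55 against 6.93 and 7.09 and a difference of 2.57. Here the 95% interval of the difference between genotypes was -1.02 to 0.74, so the 4 arrays a genotype leave room for a difference of that size.

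The call of Tcf21 and of Cxcl13 was sensitive to the arrays in the fit. No gene passed in a fit of the 4 wild-type arrays alone, where 723 genes had an unadjusted p under 0.05. When 1 descending wild-type array or 1 knockout array was left out, no gene passed in any of these 6 fits, while 3 passed without ascending replicate 1 and 23 without ascending replicate 2. Of the 3, Tnnt3 is the only one named here, and neither Tcf21 nor Cxcl13 was among them. Tcf21 was called in 8 of 19 alternative fits at the same threshold, Cxcl13 in 5 and Ptn in 3. Over these fits the adjusted p of Tcf21 ranged from 0.00756 to 0.425, that of Cxcl13 from 0.0224 to 0.425 and that of Ptn from 0.0226 to 0.749. The size of the difference moved less, from 2.58 to 3.44 for Tcf21, from -3.01 to -2.57 for Cxcl13 and from 2.01 to 2.73 for Ptn.

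The reference sequence in front of these 3 genes is given so that the genes with the clearest segment difference can be looked up. Each window holds the 250 bases before the annotated start in RefSeq's annotation of GRCm38.p6, written 5′ to 3′ on the strand of the gene. The windows are chr10:22820144-22820393 (minus strand) for Tcf21, chr6:36810180-36810429 (minus strand) for Ptn and chr5:95956689-95956938 (plus strand) for Cxcl13. Capitals mark matches to an E-box (CANNTG), to TATAAA or to CCAAT, each searched on both strands.
Tcf21: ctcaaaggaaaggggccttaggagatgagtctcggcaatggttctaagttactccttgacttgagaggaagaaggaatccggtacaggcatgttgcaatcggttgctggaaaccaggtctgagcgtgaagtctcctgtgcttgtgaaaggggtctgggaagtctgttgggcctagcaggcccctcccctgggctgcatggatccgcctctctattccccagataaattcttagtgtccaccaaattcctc
Ptn: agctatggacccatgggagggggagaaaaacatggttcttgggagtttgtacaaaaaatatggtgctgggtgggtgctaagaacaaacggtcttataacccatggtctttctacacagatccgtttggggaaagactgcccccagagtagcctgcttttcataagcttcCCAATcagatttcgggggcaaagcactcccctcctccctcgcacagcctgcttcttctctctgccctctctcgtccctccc
Cxcl13: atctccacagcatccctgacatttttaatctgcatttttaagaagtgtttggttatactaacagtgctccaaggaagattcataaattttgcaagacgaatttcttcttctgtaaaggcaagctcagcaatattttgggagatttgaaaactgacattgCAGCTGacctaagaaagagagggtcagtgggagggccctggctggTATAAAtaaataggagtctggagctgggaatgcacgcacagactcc
The Cxcl13 window holds CAGCTG from base -91 to -86 and TATAAA from -46 to -41, counted from the start of the gene, and the Ptn window holds CCAAT from -81 to -77. The Tcf21 window holds none of the 3 motifs. Of all 32851 windows of this length, 66.2% hold an E-box, 12.4% TATAAA and 33.8% CCAAT. A match describes the letters of the window only.

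**Figure D1:**
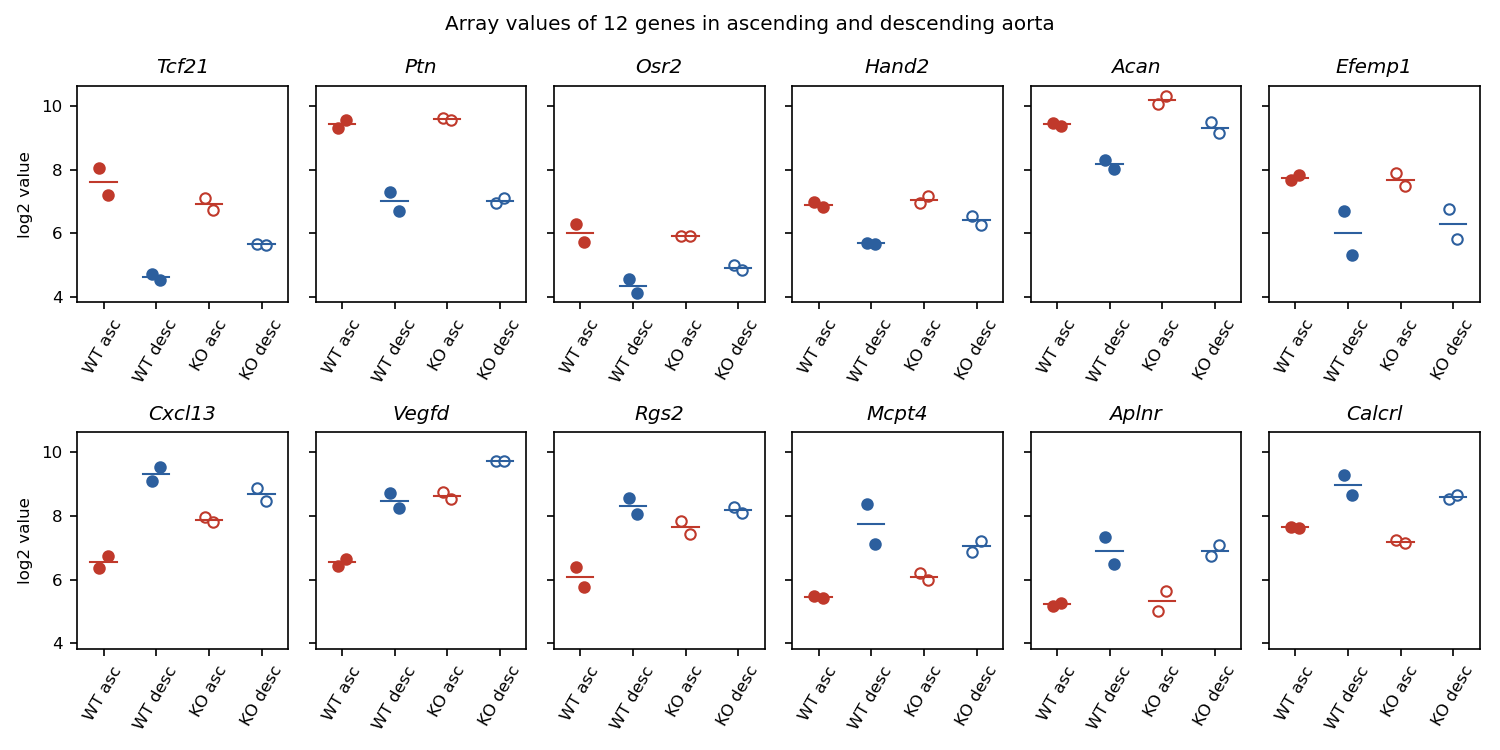
Log2 value of 12 genes on each array, with ascending arrays in red, descending arrays in blue, wild-type filled, knockout open, and the group mean as a bar. The upper row holds genes higher in ascending and the lower row genes higher in descending wild-type aorta, and in each of them the 2 wild-type groups do not overlap.

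The 4 wild-type arrays were not equally alike. The interquartile range of the values was 1.80 and 1.74 on the replicate 2 arrays of ascending and descending aorta, against 2.14 to 2.28 elsewhere in the series. The first principal component of all 8 arrays (29.4% of the variance) set these replicate 2 arrays apart, and the second (21.3%) set ascending replicate 1 apart. Spearman's rho across genes was 0.899 between the ascending and 0.929 between the descending replicates, against 0.931 and 0.932 between the same-numbered arrays of the 2 segments. Across genes, the segment difference of the replicate 1 arrays and that of the replicate 2 arrays had a Pearson correlation of 0.085, and of -0.213 with the numbers crossed, beside 0.168 for the same-numbered knockout arrays. Xist, transcribed from the inactive X chromosome, read 6.39 on descending replicate 2 and 8.65 to 9.19 on the other wild-type arrays, and the part of sex in the results was not tested. Smooth muscle markers were bright on all 4 arrays, with Acta2 at 12.1 to 12.3, Tagln at 10.9 to 11.0 and Myh11 at 8.70 to 9.21. Elastin, Eln, read 11.74 to 11.99 and the endothelial adhesion molecule Pecam1 8.63 to 8.93. The targeted gene was not analysed here.

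Gene lists are described by the median difference of their members, which moved with single arrays. With each wild-type array left out in turn, the median of 14 of 39 lists kept its sign and that of 25 did not.

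Transcription factors of the outflow tract and neural crest were examined because they mark the origin of the ascending wall. Of 42 measured members, 27 were higher in ascending and 15 in descending aorta, with a median difference of 0.11 beside 0.015 over all genes. The median was 0.029 without descending replicate 2 and 0.21 without ascending replicate 2. None was called, and 7 higher in ascending and 1 higher in descending aorta had an unadjusted p under 0.05, beside 3.21% and 2.98% of all genes. Hand2, a basic helix-loop-helix factor of the heart field and of the neural crest, read 6.99 and 6.81 in ascending and 5.70 and 5.66 in descending aorta, a difference of 1.22 (SE 0.25, adjusted p 0.344). Both pairs were tight and well apart, and the knockout difference was 0.65. Tbx20, a T-box factor of the heart, had 7.11 and 6.44 against 5.81 and 5.58, a difference of 1.08 beside 0.72 in the knockout. Foxf1, a forkhead factor of splanchnic mesoderm, read 5.94 and 5.89 against 4.42 and 4.96, and its knockout difference was -0.05.

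The other members of this list with an unadjusted p under 0.05 include factors of the branchial arches. Dlx6 read 5.45 and 5.07 in ascending and 4.21 and 4.27 in descending aorta, a difference of 1.02. Msx2 had a difference of 0.91, beside -0.05 in the knockout. Prrx1, a homeobox factor of limb and craniofacial mesenchyme, was the member higher in descending aorta, with 6.46 and 6.80 against 8.04 and 7.59 and a difference of -1.18, beside -0.78 in the knockout. The list thus holds members with opposite differences.

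Of 22 genes listed as transcription factors of paraxial mesoderm and sclerotome, 16 were higher in ascending and 6 in descending aorta (median 0.06, and -0.075 without ascending replicate 1). Whether the listed members mark cells of that origin in these samples was not tested. Osr2, an odd-skipped zinc finger factor, read 6.29 and 5.74 in ascending and 4.55 and 4.14 in descending aorta, a difference of 1.67 (SE 0.28, adjusted p 0.255), and 1.00 in the knockout. Its relative Osr1 had a difference of 0.60. Every ascending array exceeded every descending array for both genes, and no member higher in descending aorta had an unadjusted p under 0.05.

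The Hox clusters gave 36 measured genes of 39, with array values between 2.65 and 6.59, in the lower part of the range of the arrays. In wild-type aorta 23 of 36 were higher in descending tissue, the median difference was -0.09, and none was called. The median was 0.024 without descending replicate 1 and -0.18 without descending replicate 2. The 5 genes with an unadjusted p under 0.05 were all higher in descending aorta, beside 2.98% of all genes in that direction. Hoxb6 read 4.95 and 4.59 in ascending and 5.80 and 6.20 in descending aorta, a difference of -1.23 (SE 0.27, adjusted p 0.397). The knockout arrays gave Hoxb6 a difference of -1.26.

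Hoxa5 read 4.27 and 4.01 against 6.54 and 4.92, a difference of -1.59 (SE 0.45) in which descending replicate 1 stood far above replicate 2. Hoxa6 differed by -1.05 and Hoxc6 by -1.09, with -0.97 and -2.06 in the knockout. The same 4 genes had an unadjusted p under 0.05 in both genotypes. Hoxc13, at -0.66, had one in wild-type aorta alone, with -0.17 in the knockout.

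Ordered by paralogue group, which follows position along the clusters, the wild-type difference was largest in the middle. In groups 5 to 8, a bracket chosen with the values known, 10 of 11 genes were higher in descending wild-type aorta with a median of -0.41, and 4 had an unadjusted p under 0.05. With 1 wild-type array left out, 7 to 11 of the 11 were higher in descending aorta and the median lay between -0.63 and -0.37. Hoxa7 was the exception at 0.07, and Hoxb7 was nearly as flat at -0.09. In groups 1 to 4, 5 of 10 genes were higher in descending aorta and none had an unadjusted p under 0.05, and in groups 9 to 13 it was 8 of 15 with a median of -0.02. In the knockout all 11 genes of groups 5 to 8 were higher in descending aorta, with a median of -1.09 and 8 at an unadjusted p under 0.05, beside 2.04% of all genes in that direction. Hoxb8, for instance, differed by -0.58 in wild-type and by -1.74 in knockout aorta. The knockout difference was not confined to these groups. There 8 of 10 genes of groups 1 to 4 (median -0.3) and 10 of 15 of groups 9 to 13 (median -0.17) were higher in descending aorta.

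**Figure D2:**
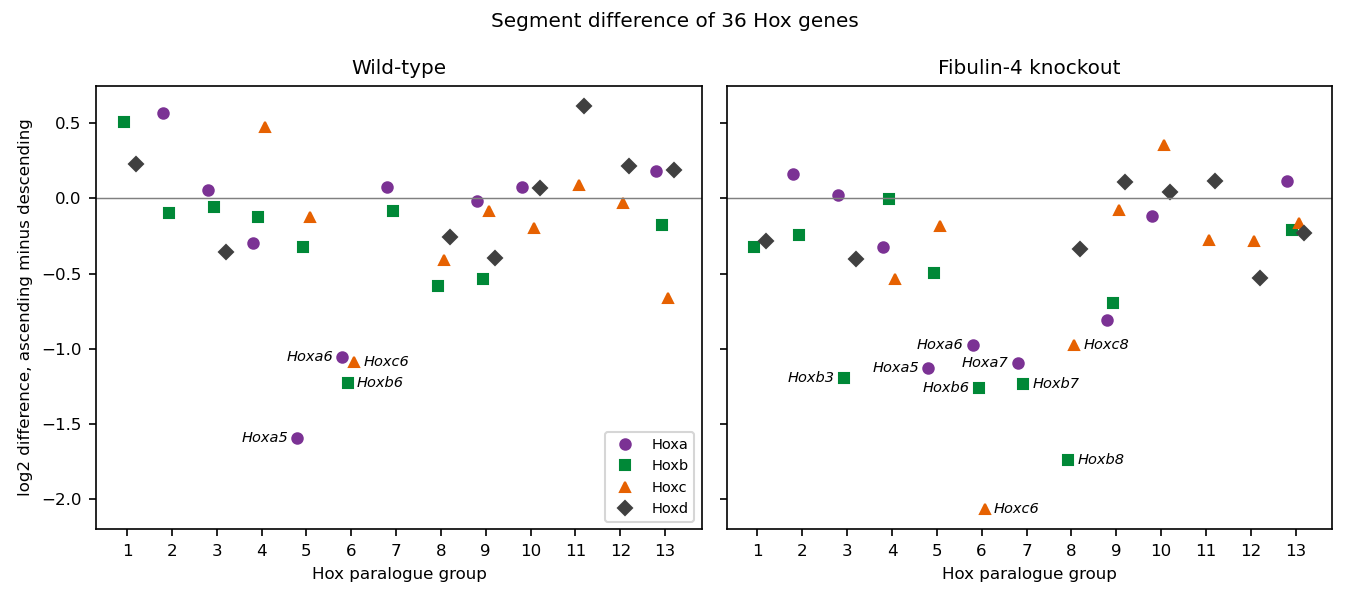
Log2 difference (ascending minus descending) of 36 Hox genes against their paralogue group, in wild-type (left) and knockout (right) aorta, with 1 marker shape and colour for each cluster. The genes below -0.9, which are named, lie in paralogue groups 5 and 6 in wild-type and 3 to 8 in knockout aorta.

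Of 29 contractile genes, 16 were higher in ascending and 13 in descending aorta (median 0.03, and -0.073 without descending replicate 2). An unadjusted p under 0.05 was found for 3 and 1 of them, beside 3.21% and 2.98% of all genes. The smooth muscle actin gene Acta2 differed by 0.07 and the smooth muscle myosin gene Myh11 by -0.29. Lmod1, a leiomodin that nucleates actin filaments, read 8.32 and 7.76 in ascending and 7.05 and 6.80 in descending aorta, a difference of 1.11 (SE 0.28, adjusted p 0.496). Pln, phospholamban, which restrains the calcium pump of the sarcoplasmic reticulum, differed by 1.18 and Myocd, the coactivator of the contractile genes, by 0.71. In the other direction Actg2, the enteric smooth muscle actin, read 9.33 and 9.94 against 10.47 and 10.55, a difference of -0.87. Knockout differences of these 4 genes were 0.46, 0.09, 0.23 and -0.25.

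Ion channel genes of smooth muscle were split 11 to 13 (median -0.02, and 0.11 without ascending replicate 2). Cacna2d1, an auxiliary subunit of voltage-gated calcium channels, differed by 0.79, with 5.62 and 5.46 against 4.90 and 4.60, and by -0.02 in the knockout. The potassium channel subunit Kcnab1 differed by 0.65.

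Of the 28 measured genes of vasoactive systems, 13 were higher in ascending and 15 in descending aorta, and none was called. The median was -0.11, and 0.058 without descending replicate 1. The members described were picked by their small p. Calcrl, the receptor subunit for adrenomedullin and calcitonin gene-related peptide, read 7.67 and 7.62 in ascending and 9.28 and 8.68 in descending aorta, a difference of -1.33 (SE 0.27, adjusted p 0.344). The knockout difference was -1.40. Agtr2, the type 2 angiotensin receptor, had 7.93 and 7.75 against 9.15 and 8.82, a difference of -1.14 in wild-type and -0.94 in knockout aorta. Ednrb, an endothelin receptor, differed by -1.05, and by -0.23 in the knockout.

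Aplnr, the receptor of the vasodilator peptides apelin and elabela, is not in that list and read higher on both descending arrays, with 5.17 and 5.28 against 7.33 and 6.50, a difference of -1.69 (SE 0.34) and -1.57 in the knockout. Rgs2, a regulator that shortens signalling through Gq-coupled vasoconstrictor receptors, read 6.41 and 5.77 against 8.56 and 8.08, a difference of -2.23 (SE 0.31, adjusted p 0.176). In the knockout the difference of Rgs2 was -0.55, and the interval of the genotype difference, -2.67 to -0.69, did not include 0, with an adjusted p of 1.

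Among 23 elastic fibre and microfibril genes 15 were higher in ascending aorta (median 0.12), and elastin itself differed by -0.08. The median was 0.0056 without descending replicate 2 and 0.20 without descending replicate 1. Efemp1, fibulin-3, read 7.67 and 7.83 in ascending and 6.69 and 5.31 in descending aorta, a difference of 1.75 (SE 0.46, adjusted p 0.514), and 1.40 in the knockout. Emilin1, an elastin-associated glycoprotein, differed by 0.97, the microfibril protein gene Fbn2 by 0.74, Ltbp2 by 0.69 and Fbln1 by 0.66. Fbln7 was higher in descending aorta, at -0.63.

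Basement membrane genes were higher in ascending aorta in 17 of 21 cases (median 0.22, beside -0.09 in the knockout). Npnt, nephronectin, a ligand of an integrin at basement membranes, read 6.64 and 5.92 against 5.20 and 4.69, a difference of 1.33 (SE 0.31). Col4a5, a type IV collagen chain, differed by 0.81 and the laminin chain gene Lama5 by 0.58. The median of this list was 0.07 without descending replicate 2 and 0.39 without descending replicate 1.

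Of 35 fibrillar and fibril-associated collagens 21 were higher in descending aorta, with a median of -0.08 that was -0.019 without ascending replicate 2 and -0.00044 without both replicate 2 arrays. Col12a1, which decorates the surface of collagen I fibrils, read 6.95 and 7.15 in ascending and 8.31 and 8.05 in descending aorta, a difference of -1.13 (SE 0.25, adjusted p 0.403). Its knockout difference was -0.58. Col11a1, which nucleates thin fibrils, differed by -0.66.

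Among 30 proteoglycan and hyaluronan genes 19 were higher in descending aorta (median -0.06, and -0.16 without ascending replicate 1). Acan, which encodes the large proteoglycan aggrecan, was among the other members, with 9.47 and 9.37 in ascending and 8.31 and 8.02 in descending aorta. Its difference was 1.25 (SE 0.26, adjusted p 0.359), and 0.88 in the knockout. Acan is also among the 23 chondrocyte markers, which were split 11 to 12 with a median of -0.02, and 0.19 without both replicate 2 arrays. The part of cartilage in this difference was not tested. The small leucine-rich proteoglycan Ogn differed by -0.64 and the hyaluronan synthase Has1 by -0.63.

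The 24 matricellular genes had a median of 0.01, which lay between -0.11 and 0.12 with 1 wild-type array left out. Sparcl1, a relative of SPARC, read 8.33 and 7.90 in ascending and 9.33 and 9.20 in descending aorta, a difference of -1.15, beside -1.08 in the knockout. Within the CCN family the differences were opposite, with Ccn3 at 0.66 and Ccn5 at -0.70.

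Of 47 Wnt genes 30 were higher in ascending aorta (median 0.08), and the median was -0.064 without ascending replicate 1 and 0.20 without ascending replicate 2. The list was led by the ligand Wnt16 with 6.33 and 5.64 against 4.90 and 4.49. Wnt16 differed by 1.29 (SE 0.30) in wild-type and by 1.06 in knockout aorta, and the R-spondin receptor gene Lgr6 by 0.75. Sost, a secreted Wnt inhibitor known from bone, is not in that list. It read 7.39 and 6.64 against 6.07 and 5.47, a difference of 1.24, beside 1.16 in the knockout. A Wnt ligand and a Wnt inhibitor were thus both higher in the ascending segment.

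Of 47 TGF-beta and BMP genes 25 were higher in ascending aorta (median 0.04, and -0.13 without descending replicate 2). The ligand Bmp2 differed by 0.76 and the receptor Bmpr1b by 0.78. Chrdl1, a secreted BMP antagonist, read 5.77 and 4.86 in ascending and 6.88 and 6.51 in descending aorta, a difference of -1.38 (SE 0.39), and -1.87 in the knockout. The BMP family ligand gene Gdf10 differed by -0.68.

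Hedgehog and FGF genes were higher in ascending aorta in 18 of 31 cases (median 0.09, and -0.049 without ascending replicate 1), but the members with the smallest p were higher in descending aorta. Hhip, a decoy receptor for hedgehog ligands, read 5.31 and 5.10 against 6.30 and 6.34, a difference of -1.11, and -2.60 in the knockout. Fgf7, a ligand made by mesenchyme, differed by -1.34 and Dusp6, a phosphatase induced by FGF signalling, by -0.97. Fgf16 was higher in ascending aorta, at 0.75.

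Of 18 retinoic acid genes 9 were higher in each segment, and the median of 0.02 lay between -0.17 and 0.20 with 1 wild-type array left out. Dhrs3, an enzyme that converts retinaldehyde back to retinol, was higher in descending aorta with 7.69 and 7.89 against 8.76 and 8.89, a difference of -1.04 (SE 0.24) and -0.63 in the knockout. Notch pathway genes were higher in descending aorta in 13 of 21 cases (median -0.19, and 0.094 without descending replicate 1). Of these, 1 had an unadjusted p under 0.05, the glycosyltransferase gene Lfng at -0.61, beside 2.98% of all genes in that direction. Guidance genes were split 22 to 18 (median 0.06, and -0.17 without descending replicate 2). Nrp1 (-0.89), Slit2 (-0.78) and the semaphorin receptor gene Plxnd1 (-1.10) were higher in descending, and the ephrins Efna5 (1.01) and Efnb1 (0.81) in ascending aorta.

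Vegfd, a ligand of the lymphatic VEGF receptor, was higher in descending aorta with 6.43 and 6.66 against 8.72 and 8.24, a difference of -1.94 (SE 0.26, adjusted p 0.176). The knockout arrays were higher in both segments, at 8.75 and 8.54 against 9.72 and 9.73, with a segment difference of -1.08. Of 11 lymphatic endothelial markers 7 were higher in ascending aorta, with a median of 0.02 that lay between -0.091 and 0.25 with 1 wild-type array left out.

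Endothelial markers were higher in descending aorta in 18 of 24 cases, with a median of -0.37. Of the 18, 5 had an unadjusted p under 0.05, beside 2.98% of all genes in that direction. Vwf, von Willebrand factor, read 7.58 and 7.33 in ascending and 8.50 and 8.36 in descending aorta, a difference of -0.97 (SE 0.26), and -1.78 in the knockout. Plvap, the diaphragm protein of fenestrated endothelium, differed by -1.29, the junction gene Esam by -0.94, the arterial transcription factor Sox17 by -0.70 and the arterial connexin Gja5 by -0.67. Emcn, a sialomucin of veins and capillaries, was higher in ascending aorta at 0.60, and Pecam1 differed by 0.05. The median was -0.07 without descending replicate 1 and -0.59 without descending replicate 2. In the knockout all 24 were higher in descending aorta, with a median of -0.82.

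Markers of skeletal muscle had the largest median of any list, 0.84, with 26 of 29 higher in ascending aorta and 16 at an unadjusted p under 0.05, beside 3.21% of all genes. Mylpf, the myosin light chain of fast fibres, read 8.51 and 9.74 in ascending and 5.62 and 4.63 in descending aorta, a difference of 4.003 (SE 0.73, adjusted p 0.305). Acta1, skeletal actin, had 9.48 and 11.11 against 7.40 and 6.75. The fast troponins Tnnt3 and Tnni2 differed by 2.94 and 2.54. The muscle regulators Myod1 and Myog differed by 0.05 and 0.49, and the difference of Myod1 lay between -0.30 and 0.40 with 1 array left out.

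The mean deviation of the skeletal muscle list from its 8-array mean was 0.36 and 1.08 on the ascending and -0.35 and -0.44 on the descending wild-type arrays. Ascending replicate 2 alone held the highest level, and without it the median difference was 0.57. On the knockout arrays it lay between -0.29 and -0.002, and the median difference there was 0.09. Ckm, muscle creatine kinase, had opposite differences in the genotypes, at 2.12 and -1.14, with an interval of the genotype difference from 1.92 to 4.59, an unadjusted p of 0.00032 and an adjusted p of 1. The part of skeletal muscle RNA in the other ascending differences was not tested.

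Cardiomyocyte markers were higher in ascending aorta in 18 of 27 cases (median 0.19), and lower there in 19 of 27 in the knockout (median -0.54). The listed genes Myl2 (0.87) and Myh7 (0.95) and the troponin Tnnt2 (1.40) were higher in ascending wild-type aorta. Whether their RNA came from heart or from skeletal muscle was not tested. Myl7 and Myh6, which are found in atrial muscle, had the opposite sign at -1.11 and -0.88. The median was -0.10 without descending replicate 2, so the direction of this list rested on that array.

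Adipocyte markers stood at the other end, with 18 of 23 higher in descending aorta and a median of -0.77. Of these 18, 10 had an unadjusted p under 0.05, beside 2.98% of all genes in that direction. Ucp1, the uncoupling protein of brown fat, read 5.37 and 4.75 in ascending and 8.80 and 7.04 in descending aorta, a difference of -2.86 (SE 0.50, adjusted p 0.255). The knockout arrays all lay between 4.22 and 4.78, with a difference of -0.25. Cox8b and Cox7a1, cytochrome oxidase subunits of muscle and brown fat, differed by -2.25 and -2.34. Fabp4, the lipid chaperone of adipocytes and of capillary endothelium, differed by -1.14, Pck1 by -1.59, Cidec, a lipid droplet protein, by -1.50 and Pparg, the adipogenic nuclear receptor, by -1.19.

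Some genes outside that list were named for their small p, and none of them was called. Cd36, a fatty acid transporter, read 7.12 and 6.59 against 9.14 and 8.25, and Pnpla2, the first lipase of triglyceride breakdown, 5.20 and 5.49 against 7.71 and 6.78. Adig, an adipocyte gene, differed by -1.95. Of 19 genes of mitochondrial fatty acid oxidation 17 were higher in descending aorta with a median of -0.58, among them Etfa (-1.38) and Eci1 (-0.83), which had an unadjusted p under 0.05. The mean deviation of the adipocyte list was 0.06 and -0.31 on the ascending and 0.91 and 0.44 on the descending arrays, so the descending pair was higher and replicate 1 the higher of it. Without descending replicate 1 the medians were -0.41 for adipocyte markers and -0.20 for fatty acid oxidation. The part of fat tissue in the other descending differences was not tested.

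**Figure D3:**
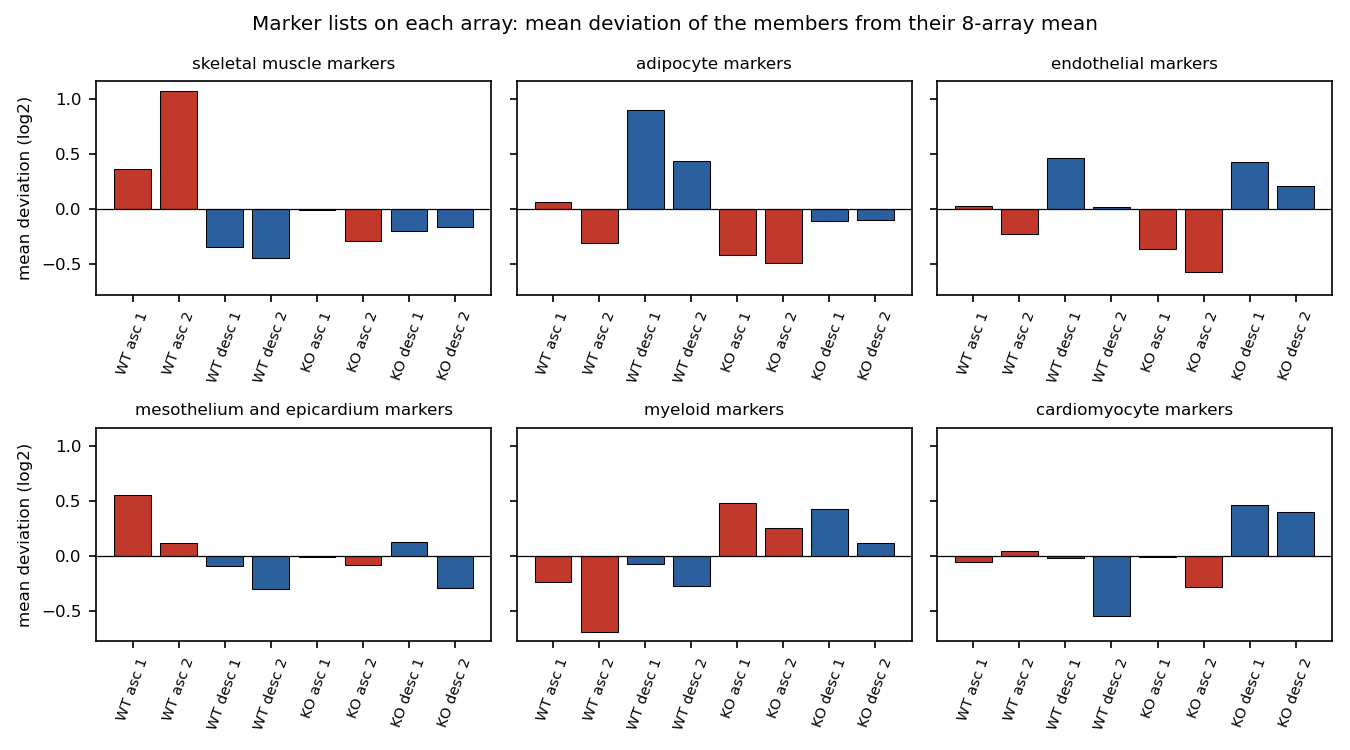
Mean deviation (log2) of 6 marker lists from the 8-array mean of their members, on each array, with ascending arrays in red and descending arrays in blue. The skeletal muscle list is highest on wild-type ascending replicate 2 (1.08) and the adipocyte list on wild-type descending replicate 1 (0.91).

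The mesothelium and epicardium list, which holds Tcf21 and Efemp1, had 14 of 18 members higher in ascending aorta and a median of 0.33. Msln, mesothelin, read 8.66 and 7.21 in ascending and 6.79 and 6.29 in descending aorta, a difference of 1.39 (SE 0.43), and Upk3b, a uroplakin of mesothelium, differed by 0.89. The epicardial factors Wt1 and Tbx18 differed by 0.16 and 0.07, with arrays that overlapped. Mean deviations were 0.56 and 0.12 on the ascending and -0.09 and -0.31 on the descending arrays, and the median was 0.09 without ascending replicate 1. In the knockout the median was -0.11, whereas Tcf21 was higher in ascending aorta there too.

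Epithelial markers of airway, gut and lung were higher in ascending aorta in 18 of 24 cases (median 0.22, beside 0.14 in the knockout, and 0.11 without ascending replicate 1). The surfactant gene Sftpc read 9.71 on ascending replicate 1 and 4.56 to 6.19 on the other 3 wild-type arrays. Its difference of 2.66 (SE 1.01) thus rested mostly on a single array and was 0.90 without it. Scgb1a1, the secretoglobin of club cells, differed by 1.20 in wild-type and by 2.44 in knockout aorta, without overlap in either. Of 20 thymocyte and lymphocyte markers 15 were higher in ascending aorta, and the median of 0.13 was -0.048 without descending replicate 1 and 0.33 without descending replicate 2. Cd3d, a chain of the T cell receptor complex, read 6.25 and 5.70 against 4.21 and 4.72, a difference of 1.51 (SE 0.31), beside 0.84 in the knockout, and Cd8b1 differed by 1.09. Cd79a, a B cell receptor chain, went the other way at -1.01.

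The joint list of neutrophil and mast cell markers had 15 of 23 members higher in descending aorta and a median of -0.17, which was 2e-05 without ascending replicate 2. None was called, and 4 higher in descending aorta had an unadjusted p under 0.05, beside 2.98% of all genes in that direction. The 4 were Ly6g (-1.11) of neutrophils and the 3 mast cell genes described next. The chymase gene Mcpt4 read 5.50 and 5.42 in ascending and 8.37 and 7.13 in descending aorta, a difference of -2.29 (SE 0.38, adjusted p 0.255), and -0.95 in the knockout. Cpa3, mast cell carboxypeptidase, differed by -1.35 and the chymase Cma1 by -0.91.

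Myeloid markers were higher in descending aorta in 19 of 25 cases with a median of -0.31, led by Fcer1g (-1.28) and the macrophage marker Adgre1 (-0.77). That median was 0.08 without ascending replicate 2 and 0.09 in the knockout. Complement and chemokine genes, which include the called gene Cxcl13, were higher in descending aorta in 22 of 34 cases (median -0.26). Ccl11, eotaxin, read 5.26 and 6.50 against 7.42 and 8.06, a difference of -1.86 (SE 0.43), and -1.63 in the knockout. The anaphylatoxin receptor C5ar1 differed by -1.08 and the complement genes C2 and C1ra by -1.05 and -0.999. The median of this list was 0.03 without ascending replicate 2 and 0.05 without both replicate 2 arrays.

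Fibroblast and adventitia markers had a median of -0.12, which was 0.060 without descending replicate 1. In this list 13 of 22 were higher in descending aorta, among them Ebf2 (-1.25), a factor of adipose and mesenchymal progenitors, and Igf1 (-0.67). Schwann cell markers had a median of -0.20 (9 of 15 higher in descending aorta) and melanocyte markers one of -0.12 (9 of 13), which were -0.12 and -0.033 without descending replicate 2. Without both wild-type replicate 2 arrays these medians were -0.16 and 0.038. Of 26 sympathetic neuron and chromaffin cell markers 18 were higher in descending aorta (median -0.07, and 0.044 without descending replicate 2). Scg2, a granin of secretory vesicles, had the smallest p of them, with 4.35 and 4.41 against 5.77 and 5.58, a difference of -1.29 (SE 0.30) and -2.34 in the knockout.

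The median of cell cycle genes was 0.16, with 21 of 33 higher in ascending aorta and 0 at an unadjusted p under 0.05, and the median was -0.12 without descending replicate 2. Immediate early genes were higher in ascending aorta in 15 of 23 cases (median 0.11), with Jund at 1.44, and the median was -0.16 without descending replicate 2 and -0.24 without both replicate 2 arrays. Hypoxia and glycolysis genes had a median of -0.13, and -0.0084 without ascending replicate 2, with the haem oxygenase gene Hmox1 at -1.30. Erythroid markers had a median of 0.10, and -0.054 without ascending replicate 2, and the embryonic globin Hbb-y, with 5.85 and 5.33 against 4.37 and 4.43, differed by 1.19 in wild-type and 1.21 in knockout aorta.

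**Figure D4:**
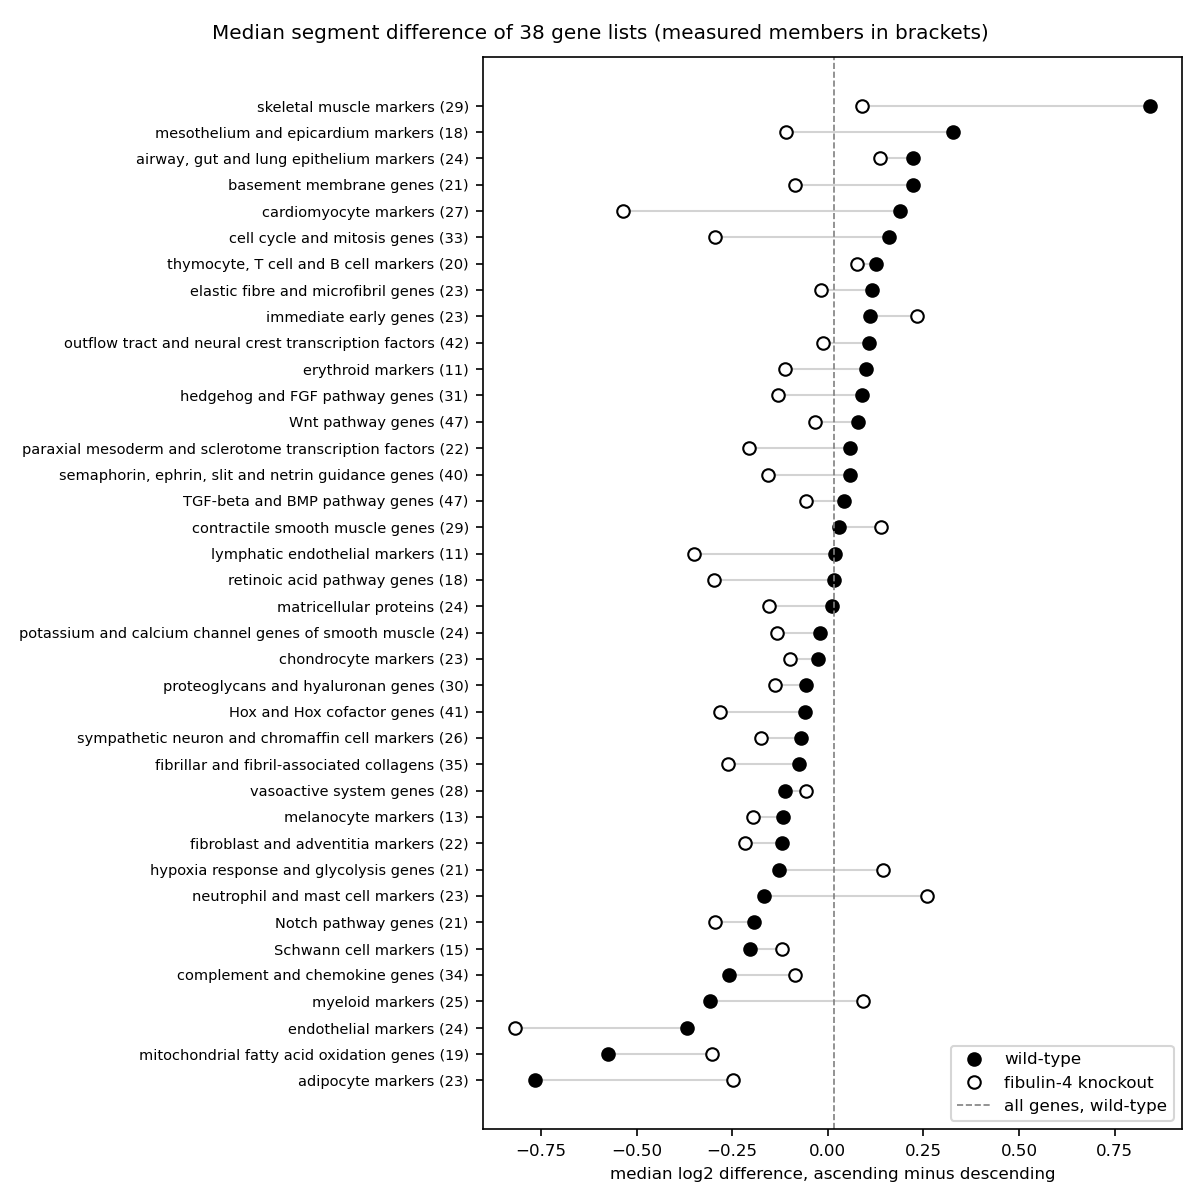
Median log2 difference (ascending minus descending) of the measured members of 38 gene lists in wild-type (filled) and knockout (open) aorta, ordered by the wild-type median, with the median of all genes as a dashed line. Skeletal muscle markers (0.84) and adipocyte markers (-0.77) mark the ends in wild-type aorta.

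Of the remaining genes nearest to the threshold in ascending aorta, Cst9, a cystatin gene, read 7.25 and 5.84 against 3.81 and 3.83, a difference of 2.72 (SE 0.40, adjusted p 0.187), and 0.44 in the knockout. Krt17, a keratin of basal epithelium, differed by 2.34 and Ahcy, which hydrolyses S-adenosylhomocysteine, by 1.87, with 0.45 and -0.35 in the knockout. The Ahcy difference depended on the processing: it lay between 1.35 and 2.38 with 1 array left out, but fell to 0.58 among the other alternative fits. Magea6 was dim on every array, at 2.51 and 2.90 against 1.41 and 1.40. Nearest in descending aorta, Zim1, an imprinted zinc finger gene, read 7.22 and 6.90 against 8.64 and 8.49, a difference of -1.51 (SE 0.26), and -0.74 in the knockout. Irgm2, an interferon-inducible GTPase, differed by -1.60.

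The knockout pools gave segment differences of their own, although the p-values of both genotypes rest on 1 shared estimate of the spread. In knockout aorta limma called 0 of 22180 genes (0%), with 895 at an unadjusted p under 0.05 (4.04%). With each genotype fitted alone, limma gave 1815 such genes in knockout and 723 in wild-type aorta. Which genotype had more genes at that level thus depended on the estimate of the spread. Of the 713 genes at that level and higher in ascending wild-type aorta, 494 (69.3%) had the same direction in the knockout, and their median difference was 0.85 in wild-type and 0.14 in knockout aorta. Of the 661 higher in descending aorta, 439 (66.4%) had the same direction, with medians of -0.84 and -0.17. With the wild-type lists taken from a fit of the 4 wild-type arrays alone, 285 of 394 genes (72.3%) higher in ascending and 215 of 329 (65.3%) higher in descending aorta had the same direction in the knockout. Among all genes 54.9% had the same sign in both genotypes, and across genes, which are not independent replicates, Pearson's r between the differences was 0.157 and Spearman's rho 0.147.

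An unadjusted p under 0.05 in both genotypes with the same direction was found for 65 genes higher in ascending aorta (0.293% of all genes, 9.1% of the wild-type and 14.7% of the knockout list). In descending aorta it was 84 genes (0.379%, and 12.7% and 18.6% of the lists), and 24 genes had opposite directions. These counts were 59 and 84 with each genotype fitted alone, and 192 and 178 without both wild-type replicate 2 arrays. Without the dimmest 25% of genes they were 47 and 81. The ranking left out predicted genes, olfactory and vomeronasal receptors, microRNAs and small nucleolar RNAs. It thereby kept 43 of the 65 ascending and 80 of the 84 descending genes. Ranked by the smaller of the 2 differences, the ascending genes were led by Ptn, Efemp1, Stx1a, Tcf21, Scgb1a1, Hbb-y, Sost, Wnt16, Cav3 and Osr2. Stx1a, a syntaxin of vesicle release, differed by 1.33 and 1.39, and Cav3, the caveolin of muscle, by 1.18 and 1.00.

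The descending genes were led by Car3, Saa3, Ccl11, Aplnr, Chchd10, AU021092, Apod, Chrdl1, Mrap, Calcrl, Cox8b and Scg2. Car3, a carbonic anhydrase of fat and muscle, had the widest spread, with 10.24 and 8.60 against 11.98 and 11.22 in wild-type and 7.29 and 4.65 against 10.02 and 9.77 in knockout aorta. Saa3, an acute phase protein of fat and macrophages, differed by -1.99 and -2.41. Apod, a lipocalin, differed by -1.43 and -1.44, Mrap, a partner of the melanocortin receptor, by -1.34 and -1.37, and the mitochondrial gene Chchd10 by -1.51 and -1.56.

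**Figure D5:**
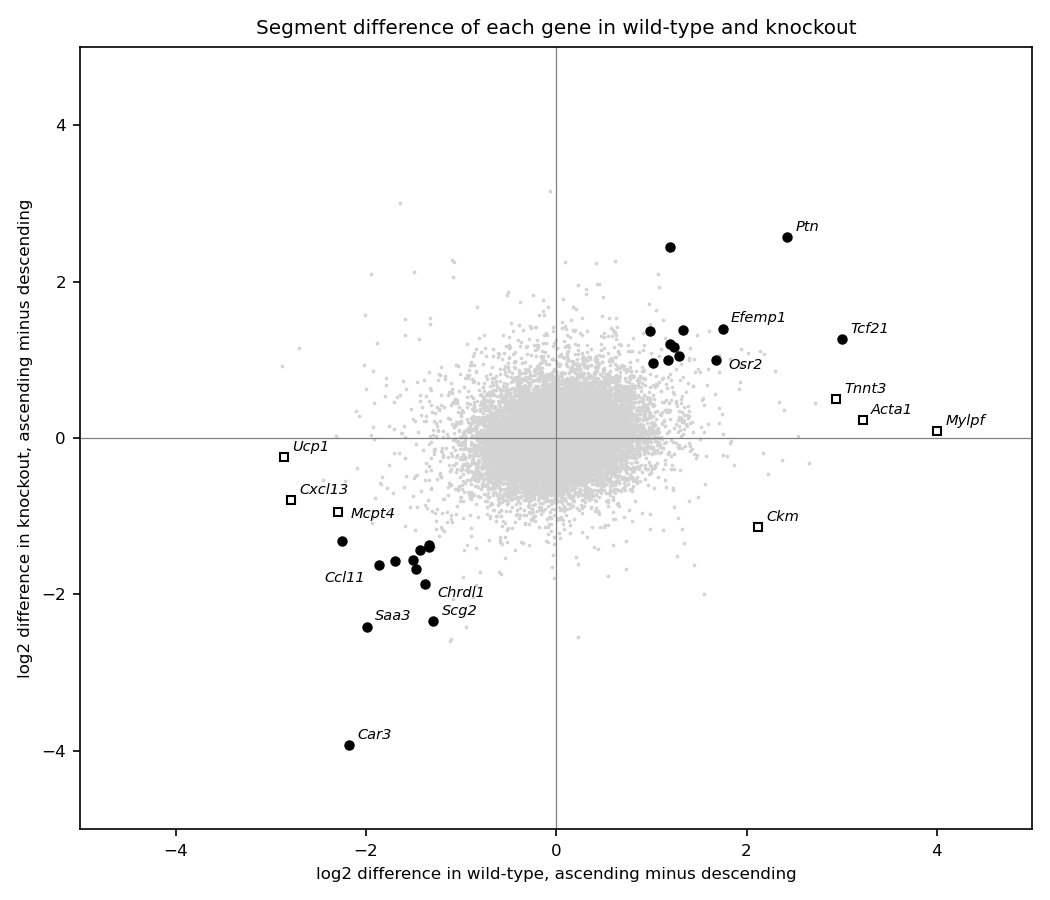
Log2 difference (ascending minus descending) in knockout against that in wild-type aorta for 22180 genes (grey), with the 24 top-ranked genes at an unadjusted p under 0.05 in both genotypes in black and other named genes as open squares. Ptn lies near the diagonal (2.43 and 2.57), whereas Mylpf (4.003 and 0.09) and Ucp1 (-2.86 and -0.25) lie near the horizontal axis.

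Whether a segment difference was particular to wild-type aorta was tested as the wild-type minus the knockout difference. Limma called 0 genes, with 733 at an unadjusted p under 0.05 (3.3%) and a smallest adjusted p of 0.523. That gene was Zfp119b, a zinc finger gene, with 4.78 and 4.70 against 2.94 and 3.42 in wild-type and 3.69 and 3.02 against 5.04 and 5.64 in knockout aorta. Its direction was opposite in the genotypes, by 1.55 and -1.99. Crisp3 had 0.73 and -1.68, and among genes with a more negative difference in wild-type aorta DQ267101 had -1.64 and 3.004 and Mfsd4b3-ps -0.90 and 0.97. Crisp3 and Mfsd4b3-ps were dim on every array, at 1.53 to 3.55 and at 2.56 to 3.84, which limits what their differences can show.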

How the data were processed

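Per the submitters' processing notes, the authors made the deposited log2 values with Affymetrix Expression Console and RMA, which corrects background, normalises between arrays and summarises probes; the sources used here give no version, probe set definition or build. Per the labels' protocols, RNA was amplified from 5 ng and labelled with biotin. Of 41345 rows, 23521 had 1 gene symbol in the platform annotation, 1814 had several and 16010 were unnamed here; 23328 of the 23521 matched RefSeq (GRCm38.p6). The highest-mean row of each gene left 22180 genes, 1082 of which had several rows.

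Group means over all 8 arrays were fitted in R 4.3.3 with limma 3.58.1 (4 residual and 5.52 prior degrees of freedom), two-sided, with Benjamini-Hochberg adjustment. Precision is limited by the number of arrays: the median SE was 0.30, and an exact permutation test of 2 against 2 arrays cannot go below 0.333. The procedure was tested on simulated data. Genes were named by rank of difference or p, leaving out predicted genes, olfactory and vomeronasal receptors, microRNAs and small nucleolar RNAs, plus up to 6 members a list with the smallest p, defining markers, and Acta2, Myh11 and Eln. The genes and the 39 lists (995 of 1071 entries measured) were chosen with earlier results of these data known. Lists were described by counts and medians, with no test. The alternatives were other scalings, filters, rows, spread models, blocks and thresholds, and leaving out arrays. Python 3.11.15 and matplotlib 3.10.9 made the plots.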

Additional observations from a re-analysis of the deposited data

How the results depend on the processing

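In wild-type aorta 2 genes were called in the fit reported. The count was 1 after quantile normalization, 0 with array weights, 0 with only the groups compared, 0 with every row of the table, 9 without both wild-type replicate 2 arrays, and 0 to 23 when 1 array was left out. With the replicate number as a block shared by both genotypes it was 1, and with a block within genotype it was 0. The labels do not say that numbers pair pools, and for that reason the block was not used in the fit reported. Deviations from the group means correlated at 0.292 for same-numbered wild-type and at -0.0168 for knockout arrays. An effect shared by same-numbered wild-type arrays was therefore not taken into account there. In knockout aorta the count of 0 became 2 without the dimmest 25% of genes, 2 with trend and robust options, 18 with array weights and 2 at an adjusted p under 0.1. The count of 0 for the difference between genotypes became 1 without both wild-type replicate 2 arrays. Of the counts at an unadjusted p under 0.05 in both genotypes, a set of alternatives chosen after seeing the data, the 65 in ascending aorta became 108 with the block within genotype, 192 without both wild-type replicate 2 arrays, 128 with every row of the table and 30 to 145 when 1 array was left out; the 84 in descending aorta became 178 without both wild-type replicate 2 arrays and 43 to 115 when 1 array was left out.

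The 160 genes named in the text gave 3192 gene and setting pairs. The direction and the side of the threshold stayed as reported in 3144, mostly of genes that were not called, which says little about the calls. Only Tcf21 and Cxcl13 were called in the fit reported, so the 25 calls that ended were all theirs, and 10 calls were gained. In 13 pairs the difference turned sign, all of genes far from the threshold. Without both wild-type replicate 2 arrays these were Acta2 (-0.039), Xist (-0.41) and Myod1 (-0.073). The others came from leaving out 1 array, where the difference ranged from -0.201 to 0.047 for Eln, -0.47 to 2.33 for Xist, -0.14 to 0.28 for Hoxa7, -0.30 to 0.40 for Myod1, -0.12 to 0.45 for Wt1, -0.37 to 0.52 for Tbx18 and -0.080 to 0.19 for Pecam1. The cause was not tested. Most Hox genes lay in the dim part of the arrays, which limits what these arrays can show of them.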

Other observations

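The dimmest genes stood apart in the segment difference, without a steady trend over the levels above them. Over the dimmest 20% of genes the median wild-type difference was 0.12, with 381 genes at an unadjusted p under 0.05 in limma's test. Over the brightest 20% it was -0.03, with 316 such genes. The levels between them, in 3 steps of 20% each, had medians between -0.01 and 0.01 and 212 to 251 such genes.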
